A study of Homo sapiens with 6 samples.

Results

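The clustered replication-dependent histone genes were measured by 49 of the 54613 probe sets analysed, which covered 43 genes of the 19775 that had a probe set with 1 symbol. On this array a transcript is read by a probe set, several short DNA strands whose signals are combined. The members were every probe set, whatever its signal, whose platform annotation gave a single symbol of the linker histones H1-1 to H1-6 or of the core histone families H2AC, H2BC, H3C and H4C, with H2BC12L included. There were 7 probe sets of H1, 10 of H2A, 15 of H2B, 8 of H3 and 9 of H4. Symbols alone chose the probe sets. The family itself was taken up because earlier results from these arrays had placed several of its genes among those with lower signal after NME2 depletion, so all differences below describe that contrast and are not independent evidence for it.

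The cells were A549, an established line of human lung adenocarcinoma, and their RNA was put on 6 Affymetrix arrays. In the 3 NME2-depleted arrays the cells had received an siRNA duplex against NME2, a nucleoside diphosphate kinase that also binds DNA, and in the 3 control arrays they had received control duplexes, so both groups were transfected. The depletion was transient, and the sequences of the duplexes and the hours between transfection and harvest were not stated in the sources used. Samples are called biological replicates by the submitters, but separate cultures are not described, so p-values measure only the spread between these samples. The NME2 probe set, which also carries the read-through transcript NME1-NME2, had signals of 1920, 3676 and 3216 in NME2-depleted cells and 17862, 19389 and 21045 in control cells, which is 6.85-fold lower (limma, Benjamini-Hochberg adjusted p = 0.00032). Median array signals lay between 75.7 and 85.2. The epithelial markers KRT8, KRT18, KRT19, EPCAM and CDH1 all passed the signal filter, with summed signals, mostly of KRT18 and KRT8, of 47722 to 52652 in NME2-depleted and 50142 to 56463 in control arrays. None passed the threshold. The groups did not overlap for EPCAM (log2 difference 0.71, SE 0.16) and CDH1 (0.21, SE 0.08), which were higher in NME2-depleted cells, nor for KRT8 (-0.24, SE 0.08). These 3 had an unadjusted p under 0.05 in limma, as did 12.9% of all tested probe sets. Over all tested probe sets 8.91% had every NME2-depleted array below every control array, as KRT8 had. The share of tested probe sets separated upward, as EPCAM and CDH1 were, was not counted. The 4 leukocyte markers on the array summed to 315 to 443 in NME2-depleted and 371 to 461 in control arrays. PTPRC, which defines leukocytes, had 4.9 to 25.5 in NME2-depleted and 12.3 to 23.7 in control arrays, under the filter. CD14 (-0.38, SE 0.20) and CD3E (0.24, SE 0.37) passed the filter, and their groups overlapped.

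Core histones H2A, H2B, H3 and H4 form the protein spool of the nucleosome, and H1 binds the linker DNA between nucleosomes. Most of their messengers are made while DNA is copied, from many near-identical genes that lie in clusters, and these messengers end in a stem-loop bound by the protein SLBP and not in a poly(A) tail. Some histone genes also give tailed messengers. Labelling here started from poly(A)+ RNA, so untailed messengers would be copied poorly, and tailed and untailed forms were not separated.

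The promoters are shown for the 5 genes whose probe sets passed the threshold of the fit and for which a RefSeq promoter entry was found. Of the 43 member genes 40 had an entry in RefSeq on GRCh38.p14, from 250 bases before to 50 after the start, and 40 of the 43 genes lie on chromosome 6, with 2 on chromosome 1 and H2BC12L on chromosome 21. Capitals mark matches on either strand to the octamer (ATTTGCAT or ATGCAAAT), the CCAAT box (CCAAT or ATTGG), the TATA box (TATAAA or TTTATA) and the H1 box (AAACACA or TGTGTTT), and matches that touch run together.
H2BC12 (chr6:27146809-27147108, minus strand): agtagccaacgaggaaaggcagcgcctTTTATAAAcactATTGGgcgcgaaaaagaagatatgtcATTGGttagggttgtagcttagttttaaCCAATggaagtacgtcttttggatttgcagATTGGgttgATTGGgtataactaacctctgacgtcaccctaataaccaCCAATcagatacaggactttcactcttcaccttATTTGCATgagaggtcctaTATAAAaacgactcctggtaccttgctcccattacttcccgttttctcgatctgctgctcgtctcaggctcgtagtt
H2BC6 (chr6:26183511-26183810, plus strand): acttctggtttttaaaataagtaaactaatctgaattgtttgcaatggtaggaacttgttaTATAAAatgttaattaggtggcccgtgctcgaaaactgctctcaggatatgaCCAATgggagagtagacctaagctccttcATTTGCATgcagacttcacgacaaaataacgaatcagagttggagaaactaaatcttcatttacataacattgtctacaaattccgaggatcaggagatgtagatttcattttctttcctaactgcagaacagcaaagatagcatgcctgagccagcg
H2BC5 (chr6:26157871-26158170, plus strand): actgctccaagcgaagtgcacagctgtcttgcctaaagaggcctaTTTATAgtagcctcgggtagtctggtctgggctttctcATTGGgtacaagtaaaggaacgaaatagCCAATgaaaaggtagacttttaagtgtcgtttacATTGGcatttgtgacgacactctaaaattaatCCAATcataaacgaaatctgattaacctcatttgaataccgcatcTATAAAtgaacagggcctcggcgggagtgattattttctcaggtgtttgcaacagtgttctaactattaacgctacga
H2AC6 (chr6:26123922-26124221, plus strand): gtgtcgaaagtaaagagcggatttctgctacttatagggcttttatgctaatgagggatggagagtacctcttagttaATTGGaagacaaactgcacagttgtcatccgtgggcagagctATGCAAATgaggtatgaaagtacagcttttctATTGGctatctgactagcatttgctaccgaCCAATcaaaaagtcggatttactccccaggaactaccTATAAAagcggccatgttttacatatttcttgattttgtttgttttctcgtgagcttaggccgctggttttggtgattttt
H1-2 (chr6:26056421-26056720, minus strand): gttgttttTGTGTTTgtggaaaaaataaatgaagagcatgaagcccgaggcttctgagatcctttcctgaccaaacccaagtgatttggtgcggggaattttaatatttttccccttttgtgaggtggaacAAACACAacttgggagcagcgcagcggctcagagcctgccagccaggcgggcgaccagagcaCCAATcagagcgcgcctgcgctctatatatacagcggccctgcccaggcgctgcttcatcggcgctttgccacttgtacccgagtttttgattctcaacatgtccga

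Of these motifs only the octamer and the H1 box were missing from whole classes of histone. The octamer, a site read by the factor POU2F1 in H2B promoters, was found in 10 of 13 H2B promoters and 6 of 8 H2A promoters, in 0 of 6 H1, 0 of 6 H3 and 0 of 7 H4 promoters, and in 1.77% of all 35116 promoters of this length. The windows of 4 pairs of an H2A and an H2B gene among the members overlap by 255 to 293 bases, and 3 of these pairs share 1 octamer that is counted in both classes, so the 16 promoters hold 13 different octamers. The H1 box was found in 6 of 6 H1 promoters and in none of the other 34, against 5.64% of all promoters. CCAAT was present in 35 of 40 member promoters, including all of H1, H2A, H2B and H3 and 2 of 7 of H4, against 34.6% of all. TATAAA was present in 27 of 40, with some in every class, against 11.5%. Among the sequences shown, H2BC12, H2BC6 and H2AC6 hold the octamer and H2BC5 does not, although its probe set also passed the threshold. A match is a description of letters and not evidence of binding.

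The family divided by signal. The fit used probe sets whose mean log2 signal over all 6 arrays was at or above the median of the table, a signal of 71.7. Of the 49 members 20 passed this filter, representing 17 genes, and 29 lay under it. All 20 had a lower mean in NME2-depleted than in control cells, with a median log2 difference of -0.60 and a range from -0.98 to -0.05. Over all 27307 tested probe sets the median was 0.01 and 47.5% had a lower mean. In the limma fit with Benjamini-Hochberg adjustment over all of these, 6 of the 20 members passed the threshold of 0.05, all 6 lower, where 0.396% of tested probe sets passed in either direction and 0.278% were lower. Since this contrast led to the choice of the family, the counts are a description. The filter used the signal of both groups, and 19 of the 20 members were also above it by the NME2-depleted mean alone. The exception was H3C2. Without NME2-depleted replicate 3 or control replicate 3 the count of 6 became 2, which were H2BC12 and H2BC12L.

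**Figure D1:**
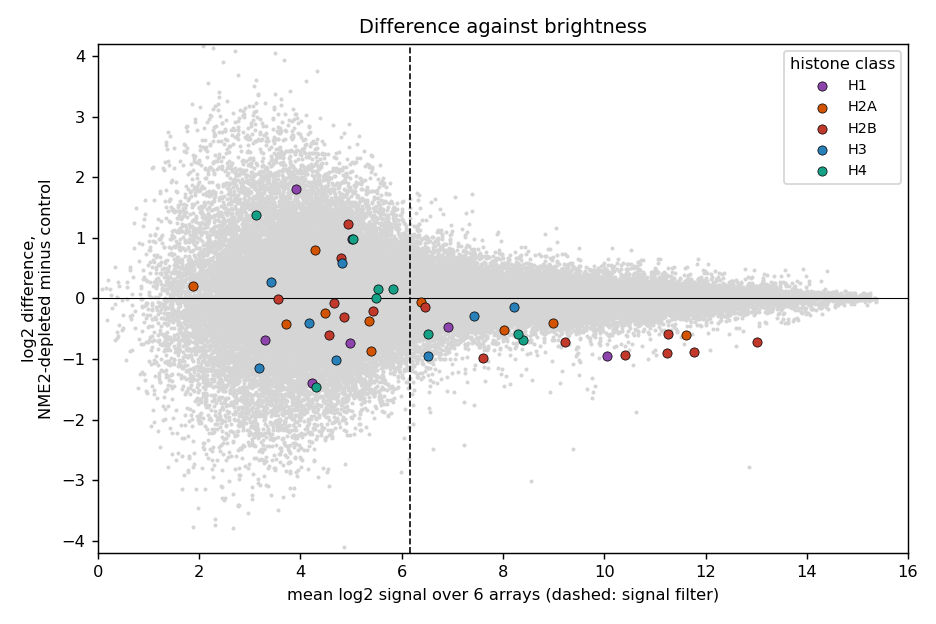
Log2 difference, NME2-depleted minus control (vertical axis), against mean log2 signal over 6 arrays (horizontal axis). Grey points are all 54613 probe sets, of which 3 lie outside the vertical axis, coloured points are the 49 members by histone class and the dashed line is the signal filter. The 20 members to its right all lie below 0, and the 29 to its left scatter on both sides.

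H2B, which pairs with H2A in the nucleosome, was the class with most members past the threshold and also with most tested probe sets. Of its 8 tested probe sets 4 passed, as did 1 of 2 of H1 and 0.396% of all tested probe sets. All 8 of H2B had a lower mean, and their median difference was -0.81. H2BC12 had signals of 5876, 6767 and 6698 in NME2-depleted cells and 11069, 10135 and 10594 in control cells. The highest depleted array was far below the lowest control array. The means were 6447 ± 495 in NME2-depleted and 10599 ± 467 in control cells (SD, n = 3 each), a log2 difference of -0.72 (SE 0.07) or 1.65-fold lower. H2BC12 passed the threshold whichever of the 6 arrays was left out, with differences from -0.76 to -0.65.

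H2BC12L, an H2B gene outside the clusters, had 2242, 2769 and 2720 in NME2-depleted and 4801, 4582 and 4912 in control cells. The groups did not overlap, and the difference was -0.89 (SE 0.09), or 1.86-fold lower. It passed whichever array was left out. Its probe set is of the type _x_at, whose oligonucleotides can also bind similar transcripts, so its signal may include other H2B messengers. H2BC6, from the cluster on chromosome 6, is also read by an _x_at probe set, with the same limit. Its signals were 846, 1149 and 1001 in NME2-depleted and 1878, 1932 and 1858 in control cells. The depleted arrays, at 998.7 ± 151, spread more than the control arrays, at 1889 ± 38.3 (SD, n = 3 each). The difference was -0.93 (SE 0.11). H2BC6 missed the threshold without NME2-depleted replicate 3 and without control replicate 3.

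H2BC5 had 2 tested probe sets, both of the type _x_at. The first had 1740, 2264 and 2037 in NME2-depleted and 2941, 2901 and 3171 in control cells, a difference of -0.58 (SE 0.10), and passed the threshold. With 1 array left out it passed in 1 of 6 cases, without NME2-depleted replicate 2. The second probe set of H2BC5 had 1453, 2541 and 1483 in NME2-depleted and 3065, 2629 and 4424 in control cells. Its groups did not overlap either, but NME2-depleted replicate 2 came close to control replicate 2. With a difference of -0.90 (SE 0.22) it did not pass.

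The other H2B probe sets did not pass. H2BC21, a gene of the chromosome 1 cluster, is read by an _s_at probe set, a type that matches several transcripts. It had the most negative difference of the tested members, -0.98 (SE 0.19). Its signals were 143.7, 140.1 and 133.9 in NME2-depleted and 328.7, 268.6 and 234.9 in control cells, without overlap. It passed under quantile normalization, median centring and cyclic loess, and not in the fit used here. H2BC9, read by an _x_at probe set, had 393.9, 569 and 462 in NME2-depleted and 834, 732.2 and 746.3 in control cells. Its difference was -0.71 (SE 0.14). The probe set of H2BC4 alone differed little, at 69.5, 70.3 and 119.8 in NME2-depleted and 90.4, 77.3 and 111.3 in control cells (-0.14, SE 0.31), and its groups overlapped.

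**Figure D2:**
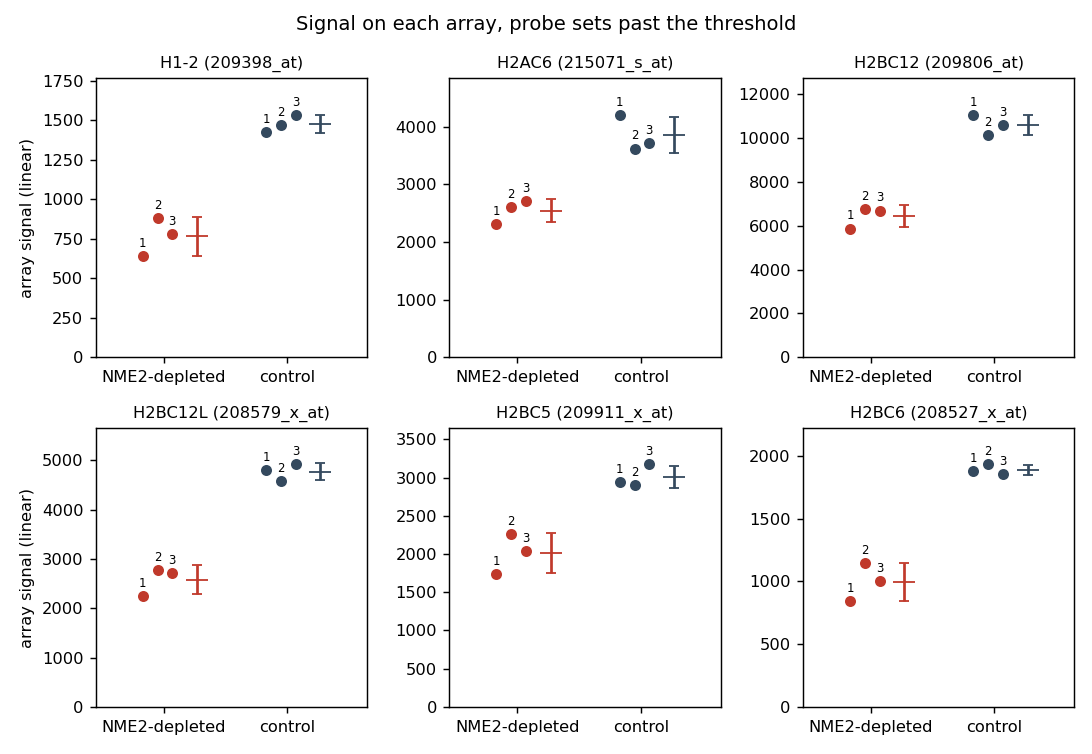
Array signal on a linear scale (vertical axis) of the 6 member probe sets past the threshold in NME2-depleted (red, left) and control arrays (dark, right). Numbered points are the replicates and each cross shows the group's mean with its SD as a bar (n = 3). In every panel all NME2-depleted arrays lie below all control arrays.

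H2A, the partner of H2B, had 4 tested probe sets, of which 1 passed and all 4 had a lower mean (median -0.47). H2AC6, read by an _s_at probe set, had 2320, 2603 and 2708 in NME2-depleted and 4210, 3624 and 3726 in control cells. The groups did not overlap, and the means were 2544 ± 201 in NME2-depleted and 3853 ± 313 in control cells (SD, n = 3 each), a difference of -0.60 (SE 0.09). H2AC6 missed the threshold without each array but control replicate 1. H2AC25 had 406.4, 489.4 and 430.8 in NME2-depleted and 677.7, 531.1 and 557.4 in control cells, a difference of -0.41 (SE 0.13) that did not pass. H2AC14 (-0.53, SE 0.23) and H2AC17 (-0.05, SE 0.33) overlapped between groups.

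H2AC6 and H2BC4 are read in opposite directions from a shared stretch, and their RefSeq promoter windows overlap by 255 bases. H2AC6 passed the threshold and the single-symbol probe set of H2BC4 did not. The SE of that probe set was 0.31, so a decrease of the size seen for H2AC6 lay within 2 SE of its value. Tested probe sets that H2BC4 shares with H2BC6 and other H2B genes had differences of -1.01, -1.42 and -0.76. None of these overlapped between groups, and those at -1.01 and -1.42 passed. The part of H2BC4 in them cannot be told apart. The difference between these genes was not tested.

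The linker histone H1, which compacts chromatin between nucleosomes, had 2 tested probe sets and 1 passed. H1-2 had 638, 883 and 777 in NME2-depleted and 1425, 1469 and 1535 in control cells. The means were 766 ± 123 in NME2-depleted and 1477 ± 55.3 in control cells (SD, n = 3 each), a difference of -0.96 (SE 0.12) or 1.94-fold lower. H1-2 missed the threshold without NME2-depleted replicate 3 and without control replicate 3. H1-3 had 101.7, 110.7 and 94.4 in NME2-depleted and 112, 154.3 and 166.3 in control cells. These did not overlap by a narrow margin, and the difference of -0.48 (SE 0.24) did not pass.

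No tested probe set of H3 or H4, the histones at the centre of the nucleosome, passed the threshold in limma. At an unadjusted p under 0.05, 13 of the 20 tested members of all classes were counted, all with a lower mean, where 12.9% of tested probe sets passed in either direction and 6.42% were lower. H4C8 had 2 tested probe sets, without overlap between groups in either. The first had 233.7, 297.7 and 265 in NME2-depleted and 442.6, 432.9 and 400.7 in control cells, a difference of -0.69 (SE 0.14), and the second had -0.59 (SE 0.18). H4C11 overlapped between groups and spread widely (-0.59, SE 0.52). H3C6 also had 2 tested probe sets and both overlapped between groups. Its first probe set had 259.6, 300 and 291.3 in NME2-depleted and 296, 280.3 and 369.9 in control cells (-0.15, SE 0.16), and the second gave -0.29 (SE 0.23). H3C2 had 76.2, 121.4 and 31.4 in NME2-depleted and 118.5, 108.6 and 162.2 in control cells, a difference of -0.95 (SE 0.44) that rested mainly on NME2-depleted replicate 3. Without that array its difference was -0.41.

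**Figure D3:**
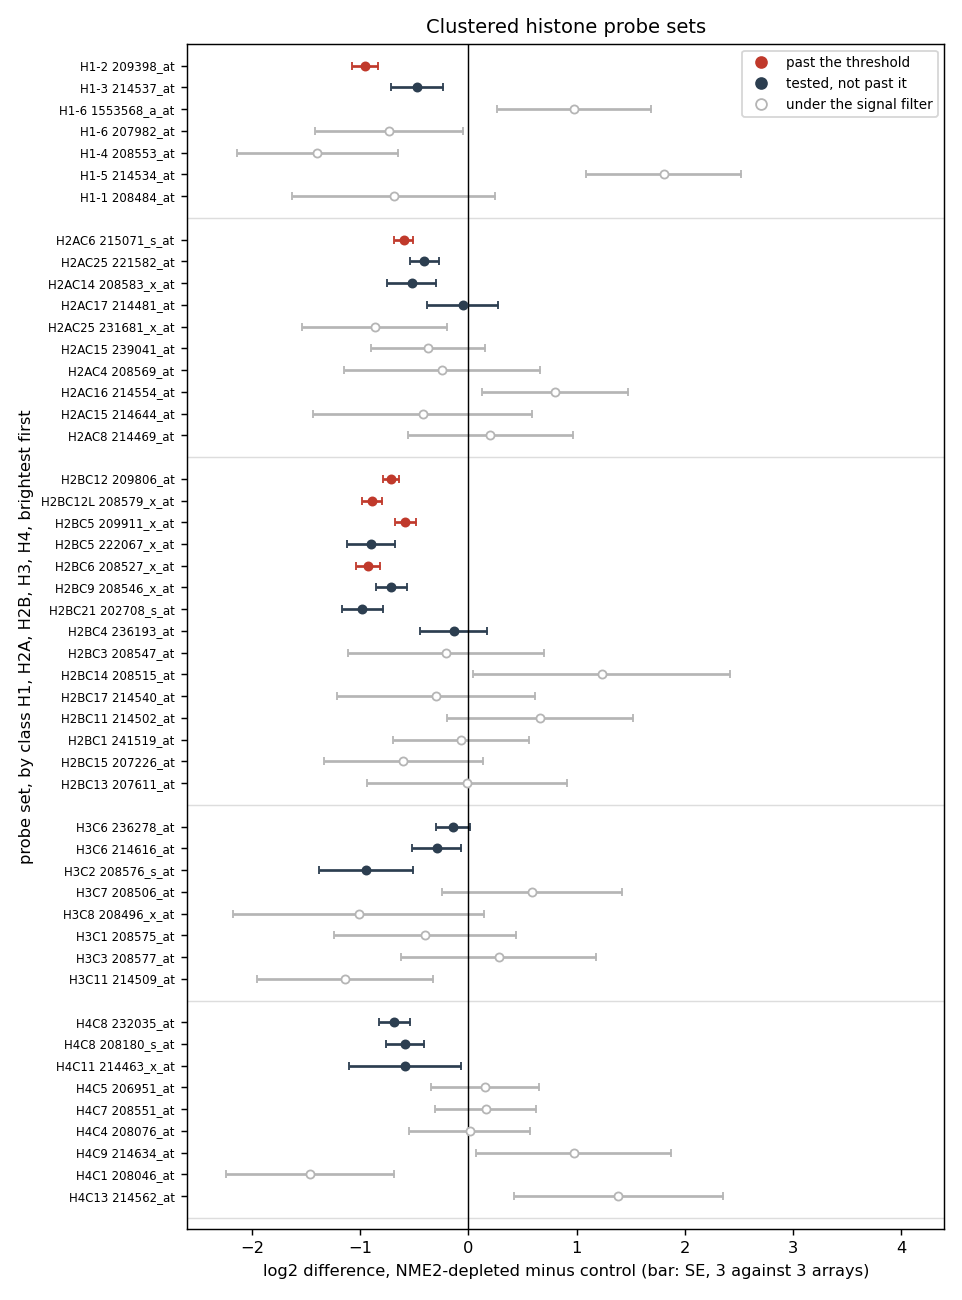
Log2 difference, NME2-depleted minus control, of all 49 member probe sets (horizontal axis, bars give the SE), grouped by histone class with the brightest probe set of a class on top. Red points passed the threshold, dark points were tested and did not, and open grey points lay under the signal filter. Bars of the grey points are several times longer than those of the red points.

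In 13 of the 20 tested members all 3 NME2-depleted arrays lay below all 3 control arrays. Such separation downward was found in 8.91% of tested probe sets. By class these were 7 of 8 for H2B, 2 of 2 for H1, 2 of 4 for H2A, 2 of 3 for H4 and 0 of 3 for H3. The classes were not tested against each other, and 2 to 8 probe sets a class, some of them of 1 gene, are few. A lower level in such bulk RNA can come from fewer cells that hold the transcript or from less of it in each cell, and these cannot be told apart here.

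Members under the filter gave no common direction. Their signals lay between 1.9 and 110.6 on single arrays. Of the 29, 16 had a lower and 13 a higher mean, with a median difference of -0.07 and a range from -1.47 to 1.81. Their SE had a median of 0.82, against 0.17 for the tested members. Separation downward occurred in 1 of them, H1-4, and upward in 1, H1-5, where 4.56% of all probe sets under the filter were separated downward and 5.79% upward. H1-5 had 19.3, 32.7 and 34.8 in NME2-depleted and 6.9, 7.1 and 10.5 in control cells, levels too dim to call. With these 29 included, 36 of 49 members had a lower mean and the median was -0.41, against 0.02 and 47.6% lower over all 54613 probe sets. Next to the filter, H2AC17 and H2BC4 were the dimmest to pass, at 83.5 and 87.7, with differences of -0.05 and -0.14, and H4C5 and H4C7 the brightest to miss it, at 57.1 and 46.4, with 0.16 and 0.16.

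The type of probe set was examined because histone genes are so alike. Plain _at probe sets are designed to match 1 transcript, whereas _s_at probe sets match several and _x_at probe sets hold oligonucleotides that can bind other sequences. Of the 9 tested _at members 2 passed, H2BC12 and H1-2, and the median was -0.41. The 4 tested _s_at members had a median of -0.77 with 1 past the threshold, and the 7 tested _x_at members -0.71 with 3. Over all tested probe sets the medians of these types were 0.02, -0.01 and 0.01. All tested members of each type had a lower mean. The types hold different genes, so the part of cross-hybridisation in these values was not tested. Where 2 probe sets of 1 gene were tested, for H2BC5, H4C8 and H3C6, both had a lower mean. This follows from the lower mean of every tested member and is no separate check.

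A further 20 probe sets carry several symbols, all of clustered histone genes, and belong to no single gene. Of these 11 passed the filter, 10 of the 11 had a lower mean, and the median was -0.73. The threshold was passed by 4, all lower, 2 of them shared by H2B genes (-1.01 and -1.42) and 2 by H2A genes (-0.89 and -0.73). A tested probe set shared by 10 H3 genes had 131.2, 184.1 and 130.6 in NME2-depleted and 292.7, 274.6 and 229.3 in control cells. Its groups did not overlap, and the difference of -0.85 (SE 0.20) did not pass. Another shared by the same H3 genes, under the filter, was higher (2.20, SE 0.87). The 1 tested with a higher mean is shared by H4 genes, with 1785, 1857 and 1548 in NME2-depleted and 1720, 2108 and 1011 in control cells (0.16, SE 0.21), and its groups overlapped. These probe sets may bind the same messengers as the members, so they are no separate measurement.

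The NME2-depleted arrays differed among themselves in how low the tested members were. The median log2 signal over the control mean was -0.82 for NME2-depleted replicate 1, -0.46 for replicate 2 and -0.66 for replicate 3, against values between -0.05 and 0.02 on the control arrays. NME2-depleted replicate 1 was the lowest of its group for 14 of 20 members and replicate 2 the highest for 14 of 20. Medians of H1, H2A, H2B and H4 did not overlap between groups, with H2B at -0.95 to -0.54 in NME2-depleted and -0.06 to 0.02 in control arrays. For H1 this rested on 2 probe sets and for H4 on 3 probe sets of 2 genes. The medians of H3, also from 3 probe sets of 2 genes, did overlap, at -0.27 to -0.07 in NME2-depleted and -0.16 to 0.24 in control arrays.

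**Figure D4:**
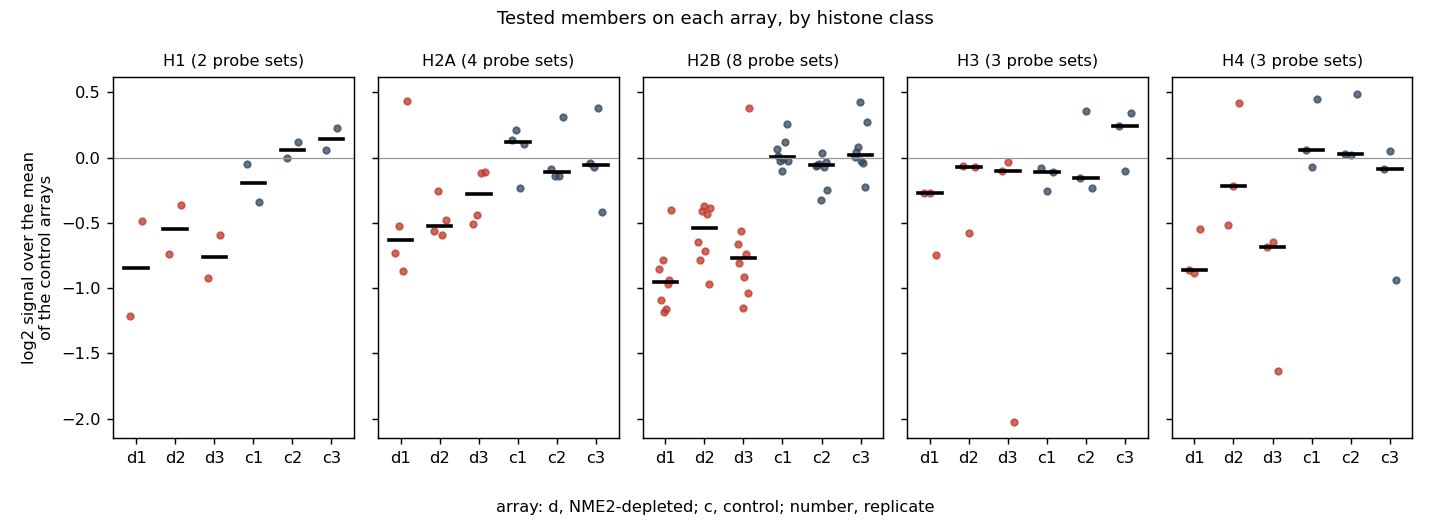
Log2 signal over the mean of the control arrays (vertical axis) for the 20 tested members on each array (horizontal axis), 1 panel for each histone class. Each point is a probe set, red for NME2-depleted and dark for control arrays, and the black bar is the median. H2B medians run from -0.95 to -0.54 in NME2-depleted and from -0.06 to 0.02 in control arrays, whereas those of H3 overlap.

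The ratio of 3' to 5' signal of ACTB, a sign of RNA quality, was 1.33 to 1.40 in NME2-depleted and 1.20 to 1.30 in control arrays and so differed between the groups without overlap. For NME2-depleted replicates 1 to 3 this ratio was 1.33, 1.34 and 1.40, and the median of the tested members was -0.82, -0.46 and -0.66. For control replicates 1 to 3 the ratio was 1.20, 1.30 and 1.23, and that median was -0.02, -0.05 and 0.02. The same ratio for GAPDH was 0.985 to 1.06 in NME2-depleted and 0.970 to 1.02 in control arrays. Fibroblast markers, of which 2 of 5 passed the filter and 0 the threshold in limma (0 also at an unadjusted p under 0.05), summed to 379 to 507 in NME2-depleted and 241 to 378 in control arrays. The 2 that passed the filter, DCN (0.66, SE 0.35) and LUM (0.46, SE 0.25), both had a higher mean in NME2-depleted cells, with overlapping groups. COL1A2, COL3A1 and PDGFRB lay under the filter, with overlapping groups. Their log2 differences were also positive, at 1.24 (SE 0.94), 0.34 (SE 0.80) and 0.41 (SE 0.76). The 4 endothelial markers, 1 of them tested, summed to 278 to 356 in NME2-depleted and 201 to 304 in control arrays. The part of RNA quality and of these markers in the result was not tested.

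Of 9 tested replication-independent variants, many of them made throughout the cell cycle from tailed messengers, 0 passed the threshold in limma. Of these 9, 1 had an unadjusted p under 0.05 (12.9% of all tested probe sets did), 5 had a lower mean and the median was -0.12. MACROH2A2 and MACROH2A1, variants with a large extra domain, had differences of -0.38 (SE 0.15) and -0.12 (SE 0.06). Of 39 tested genes of histone messenger processing and transcription 0 passed, 4 had an unadjusted p under 0.05 (2 lower and 2 higher, where 12.9% of all tested probe sets were counted), 23 had a lower mean and the median was -0.02. MIF4GD, which binds SLBP in histone translation, had 0.32 (SE 0.07), and the decapping enzyme DCP2 had -0.32 (SE 0.08). SLBP itself, named here for its role, had 1902, 1751 and 1968 in NME2-depleted and 1921, 1891 and 1883 in control cells, a difference of -0.02 (SE 0.08) with overlapping groups.

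Histone chaperones, which hold histones on their way to DNA, had 27 tested genes. Of these 0 passed in limma, 6 had an unadjusted p under 0.05 (all lower, where 6.42% of all tested probe sets were lower and counted), 19 had a lower mean and the median was -0.07. SSRP1, a subunit of the FACT complex, had -0.24 (SE 0.08) and ASF1B, a chaperone of newly made H3 and H4, had -0.46 (SE 0.18). Of 46 tested S phase genes 1 passed, 36 had a lower mean and the median was -0.14. At an unadjusted p under 0.05, 9 were lower and 1 was higher, against 12.9% of all tested probe sets in either direction and 6.42% lower. The 1 past the threshold was GINS2, a subunit of the replicative helicase, with 164.5, 168.3 and 155.4 in NME2-depleted and 506.5, 370.2 and 307.7 in control cells. Its groups did not overlap, and the difference was -1.25 (SE 0.20). Some genes stand in more than 1 of these lists. No list was tested as a whole, and its relation to the histone genes was not tested.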

How the data were processed

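Messenger RNA was measured in 6 samples, 3 per group, grouped and numbered by their titles. The authors deposited 1 linear intensity value for each probe set and array, made with GCOS 1.1.1 per the submitters' processing notes and scaled to 1 trimmed mean (500.06 to 500.07 after 2% was trimmed at each end). Such scaling hides a shift shared by all transcripts. Detection calls were not used here, and arrays have no read depth, so their number limits the precision. None of 15 array pairs was a duplicate (at most 0.297% equal values).

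The 62 control probe sets were left out, signals under 1 (0.327%) were set to 1, and log2 was taken. Probe sets at or above the median mean log2 signal were fitted with limma 3.58.1 in R 4.3.3 (lmFit, eBayes with intensity trend) over 27307 probe sets, two-sided, and the step was checked on simulated data. For members under the filter the difference and SE come from the same fit over all 54613, with no call. Symbols follow the platform annotation of 2016, updated by gene identifier (0 changed). Genome positions are those of RefSeq promoters only. Members and lists were chosen with earlier results of these data known. Named by rule were members past the threshold with their genes' other probe sets, the brightest, lowest and highest of each class, those beside the filter and H2BC12L, and the leading genes of each list. The other tested members, SLBP, H1-4 and H1-5 were named besides. The alternatives were other scalings, an offset, other filters, a table without shared probe set types, limma without a trend or with robust variances, weights for arrays, a block for replicate number, omission of each array in turn, the methods' t-test and 1 value per gene.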

Additional observations from a re-analysis of the deposited data

How the results depend on the processing

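All 20 tested members kept a lower mean under quantile normalization, median centring, cyclic loess and an offset of 32. The count of members past the threshold was 6, and it was 2 of 9, H2BC12 and H1-2, when shared probe set types were left out. The others of the 6, namely H2AC6, H2BC12L, H2BC5 and H2BC6, are of shared types and so were themselves left out. The count was 0 without an intensity trend (13 members with an unadjusted p under 0.05). With the methods' t-test it was 0 after adjustment, against 11 at its unadjusted threshold. With 1 array left out it was 2 to 5. Other settings gave 4 to 8. The median over all 49 members, -0.41, was -0.19 with the offset, -0.21 without shared types and -0.56 to -0.36 with 1 array left out. Over all tested probe sets 108 passed. The count was 30 with no filter, 192 with a filter at the 75th percentile, 62 without shared types, 0 without a trend, 0 and 3065 with the t-test after and before adjustment, and 8 to 63 with 1 array left out. The cause was not tested in these cases. Median centring moved the lower calls to 107 of 127, against 76 of 108. NME2 kept its difference of -2.78 but missed the threshold without a trend and with the adjusted t-test (adjusted p = 0.228 and 0.204), and its difference was -2.96 to -2.50 with 1 array left out. The sign turned, with no call, for H2AC17 without NME2-depleted replicate 2 (0.16), control replicate 1 (0.0008) and control replicate 2 (0.10), a range of -0.30 to 0.16, and for H2BC4 without control replicate 3 (0.001), a range of -0.40 to 0.001.

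With the replicate number as a block 8 members passed, H2BC9 and H2BC21 besides the 6, and 464 of all tested probe sets. Deviations of same-numbered arrays from their group means correlated at 0.11, 0.08 and 0.07 for numbers 1 to 3, each higher than with the other numbers, which is a hint from the data and not a pairing in the design. Depth cannot be given for arrays, and dim signals limit the 29 members under the filter, whose SE had a median of 0.82.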
